A study of Mus musculus with 6 samples.

Results

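The p53 target genes described here are 31 genes whose transcription p53, the stress-activated transcription factor, is known to raise, taken by their symbols in the deposited tables and sorted by what their products do. The tables held 30 of the 31 under their symbols, with 31 of the 23346 probe sets and 30 of the 20723 symbols. Rrm2b, a ribonucleotide reductase subunit, was not analysed here, and Ppm1d had 2 probe sets. The groups were feedback on p53 (4 found), apoptosis (13), growth arrest (4), DNA repair (4 of 5) and metabolism (5).

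The cells were mouse embryonic fibroblasts of strain Ola129, grown with serum and leukemia inhibitory factor and collected in exponential growth. The 6 arrays formed 4 groups by title: Ink4a/Arf-/- Ezh2 fx/fx and Ink4a/Arf-/- Ezh2 -/- with 2 arrays each, and Ink4a/Arf+/+ Ezh2 fx/fx and Ink4a/Arf+/+ Ezh2 -/- with 1 array each. Fx/fx is the label's own spelling and was used as the reference, although the design text speaks of transfection with esiRNA against Ezh2, while the titles name genotypes. No source used here says how many lines or embryos stand behind each genotype, so the spread between the paired arrays may be technical, and a genotype in Ink4a/Arf+/+ cells cannot be told apart from its single array.

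Ezh2 is the histone methyltransferase of Polycomb repressive complex PRC2, and the Ink4a/Arf locus (Cdkn2a) is among its best known targets in fibroblasts. The Arf protein binds Mdm2, the ubiquitin ligase that destroys p53, and so lets p53 accumulate, while Ink4a blocks the G1 cyclin-dependent kinases. Cells without the locus can still activate p53 through DNA damage kinases, but not through Arf. The comparison therefore asks which branches of the p53 program differ with Ezh2 where the Arf route is missing and where it is present.

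All values are log2 levels of a probe set on an array as the authors deposited them, and a difference is the Ezh2 -/- level minus the fx/fx level of the same table. The median level per array was 8.25 to 8.32 for Ink4a/Arf-/- and 7.498 and 7.51 for Ink4a/Arf+/+ arrays, so each table was taken to have its own scale and levels were compared only inside it. In Ink4a/Arf-/- cells the level of Ezh2 itself was 10.62 and 10.51 with the -/- label, against 10.92 and 10.91 with fx/fx, a difference that was not called (limma, adjusted p = 0.577), and in Ink4a/Arf+/+ cells it was 10.12 against 10.48. The difference for Cdkn2a was -0.078 ± 0.082 (limma's moderated SE) in the first background and 0.71 in the second. No source used here places the probes inside or outside the deleted sequence, so neither gene checks the labels. The 8 fibroblast markers ranked from the 59.3rd to the 99.96th percentile within an array, with a median at the 96.9th. Endothelial markers (3) ranked from the 22.2nd to the 34.0th and pluripotency markers (3) from the 16.4th to the 45.9th. Leukocyte markers (3) ranked from the 12.7th to the 61.8th and epithelial markers (4) from the 21.1st to the 61.2nd. Muscle markers (3) ranked from the 25.8th to the 76.6th, and the neural markers Nes and Tubb3 from the 51.9th to the 92.6th, so other markers were not all low. Array fx/fx replicate 1 of the Ink4a/Arf-/- cells stood apart, reading a median of 0.084 above fx/fx replicate 2 over all probe sets.

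The promoters of these genes are shown because p53 acts on them by binding DNA as pairs of a short 10-base motif. Windows from 250 bases before to 50 bases after a transcription start (RefSeq, GRCm38.p6) were at hand for 23 of the members, 30 windows in all, and were searched for this motif, called the p53 decamer here, which is its own reverse complement so that both strands are read at once. A decamer was in 12 of the 30 windows, or 40.0%, and in 8.36% of all 32851 windows. Windows of the same gene can overlap, and the overlapping windows of Aen hold the same decamer, counted in each. By gene, 11 of the 23 members had one. A full site, 2 decamers at most 13 bases apart, was in none of the 30 and in 0.0731% of all. The 4 windows below, with the decamer in capitals, stand for feedback (Mdm2 and Ccng1), apoptosis (Bax) and metabolism (Ddit4l).

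Mdm2 (chr10:117710709-117711008, minus strand): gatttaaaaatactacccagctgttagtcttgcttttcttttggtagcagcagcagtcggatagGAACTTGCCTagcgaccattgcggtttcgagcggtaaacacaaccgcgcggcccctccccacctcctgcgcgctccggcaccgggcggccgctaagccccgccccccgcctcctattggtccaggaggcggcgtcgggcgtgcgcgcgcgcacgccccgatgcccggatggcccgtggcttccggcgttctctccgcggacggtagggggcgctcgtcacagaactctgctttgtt
Ccng1 (chr11:40755237-40755536, minus strand): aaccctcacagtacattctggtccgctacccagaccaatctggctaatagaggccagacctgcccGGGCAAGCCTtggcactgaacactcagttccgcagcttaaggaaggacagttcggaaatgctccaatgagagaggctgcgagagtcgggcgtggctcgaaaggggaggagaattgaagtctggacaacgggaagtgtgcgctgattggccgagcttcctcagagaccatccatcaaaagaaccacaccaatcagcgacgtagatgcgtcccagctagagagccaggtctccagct
Bax (chr7:45466849-45467148, minus strand): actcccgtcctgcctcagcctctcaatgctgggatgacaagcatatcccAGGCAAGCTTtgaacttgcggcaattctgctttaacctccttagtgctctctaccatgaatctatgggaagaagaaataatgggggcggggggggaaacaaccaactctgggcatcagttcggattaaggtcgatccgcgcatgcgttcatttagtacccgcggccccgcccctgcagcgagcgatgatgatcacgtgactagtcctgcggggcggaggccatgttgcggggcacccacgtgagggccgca
Ddit4l (chr3:137623422-137623721, plus strand): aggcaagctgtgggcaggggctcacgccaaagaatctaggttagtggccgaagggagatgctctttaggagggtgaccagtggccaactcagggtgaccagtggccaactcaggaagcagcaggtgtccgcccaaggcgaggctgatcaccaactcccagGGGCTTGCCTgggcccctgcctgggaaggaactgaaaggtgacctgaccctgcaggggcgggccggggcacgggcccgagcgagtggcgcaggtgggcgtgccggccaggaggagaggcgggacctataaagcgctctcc

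Counted from the start, the decamer begins at base -186 in Mdm2, -185 in Ccng1, -201 in Bax and -90 in Ddit4l. The other members with one were Aen, Ei24, Gadd45a, Polk, Ppm1d, Rps27l and Sesn1. The members with a decamer did not have the larger medians. The 11 members with one had a median difference of 0.068 in Ink4a/Arf-/- cells and 0.36 in Ink4a/Arf+/+ cells, and the 12 with a window but no decamer had medians of 0.19 and 0.47. No match was found for Eda2r, Psrc1, Btg2, Ephx1 or Fas, which says only that the letters are not in this window.

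In Ink4a/Arf-/- cells a minority of the p53 targets stood well above the fx/fx level in both Ezh2 -/- arrays, while the rest lay close to it. Trp53inp1, Psrc1, Eda2r, Btg2, Ddit4l and Ephx1 were 1.39 to 1.63-fold higher, and Perp, Fas, Phlda3, Mdm2 and Polk 1.18 to 1.29-fold. Bax, Bbc3, Aen, Apaf1, Ei24, Tnfrsf10b and the nucleotide excision repair genes differed by at most 1.10-fold. The median over the 30 members was 0.12, or 1.09-fold, beside -0.027 over all probe sets. In bulk RNA a higher level in every cell and more cells with a high level cannot be told apart.

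By count, 23 of the 30 were above the fx/fx mean, where 39.1% of all probe sets were, and the count was 26 after quantile normalization, which turned Rps27l, Gadd45a and Xpc to just above 0. Both Ezh2 -/- arrays lay above both fx/fx arrays for 18 members, against 13.0% of all probe sets, and below both for 1 member, Sesn1, against 23.6%. Without fx/fx replicate 1 the first count was 24, beside 41.6% of all probe sets, without Ezh2 -/- replicate 1 it was 21, beside 20.4%, without Ezh2 -/- replicate 2 it was 20, beside 25.9%, and leaving out fx/fx replicate 2 gave 18, beside 20.0%. The limma test over all probe sets called 0 members, and 0.0% of all probe sets. At an unadjusted p below 0.05 it held 11 members, all higher, against 2.8% of all probe sets, and 0 lower, against 4.12%. The authors' deposited table held 10 at that level, with 0 called after adjustment here. Without Ezh2 -/- replicate 2 the limma count was 7. Allowing the variance to follow the mean level called 5 members, Eda2r, Trp53inp1, Btg2, Psrc1 and Ephx1, all higher, where 0.206% of all probe sets were called (limma, adjusted p between 0.00297 and 0.0152).

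**Figure D1:**
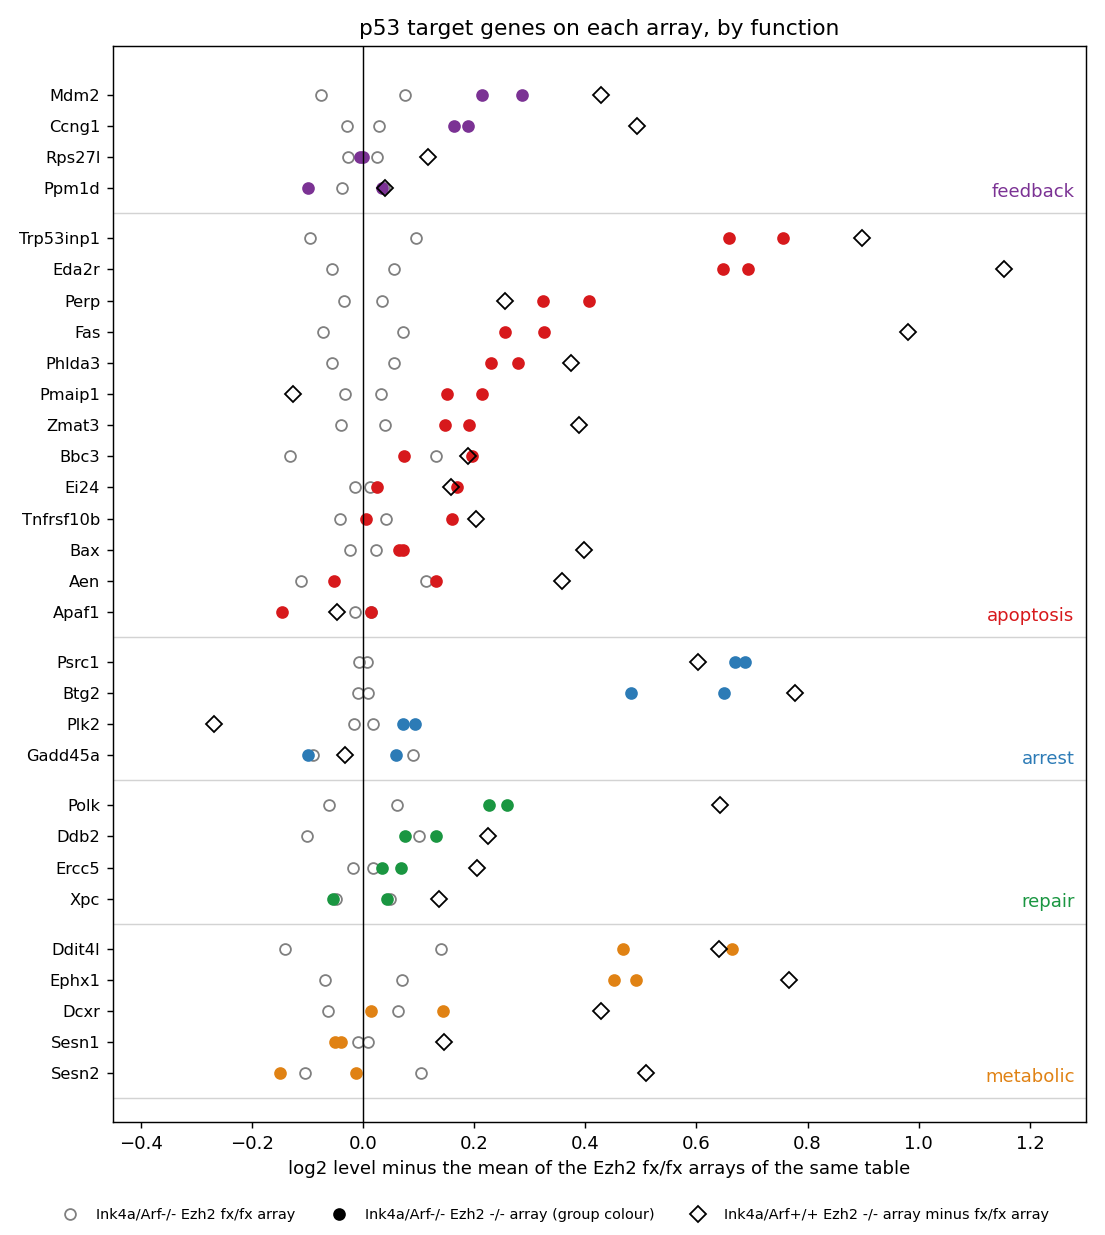
Each row is a gene and the horizontal axis is the log2 level minus the mean of the Ezh2 fx/fx arrays of the same table, with open circles for the 2 Ink4a/Arf-/- fx/fx arrays, filled circles for the 2 Ink4a/Arf-/- Ezh2 -/- arrays and diamonds for the single Ink4a/Arf+/+ Ezh2 -/- array. The filled circles of Trp53inp1, Eda2r, Psrc1, Btg2, Ddit4l and Ephx1 stand clear of the open ones, and the diamonds of Bax, Aen, Dcxr and Sesn2 lie far to the right of circles that stay near 0.

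In Ink4a/Arf+/+ cells the differences were wider for most of the list, and they took in genes such as Bax, Aen, Dcxr and Sesn2 that lay near 0 without the locus. The Ezh2 -/- array was above the fx/fx array for 26 of the 30 members, where 50.1% of all probe sets were, and the count was 26 after quantile normalization too. The median was 0.37, or 1.29-fold, beside 0.00072 over all probe sets. At least 1.5-fold higher were 8 members, Eda2r, Fas, Trp53inp1, Btg2, Ephx1, Polk, Ddit4l and Psrc1, against 2.64% of all probe sets, and 0 were that much lower, against 1.83%. Past 2-fold there was 1, Eda2r, against 0.797%. These differences have no replicate check, since each genotype is 1 array. As a yardstick, the widest gap between replicate arrays for any member in Ink4a/Arf-/- cells was 0.28, in Ddit4l, and 16 members exceeded it upward in Ink4a/Arf+/+ cells, against 10.6% of all probe sets.

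The Ink4a/Arf+/+ arrays also differed in genes outside the list. All 4 proliferation markers were lower in Ink4a/Arf-/- cells, as were 14218 of all 23346 probe sets, and in Ink4a/Arf+/+ cells, as were 11246. Mki67, the Ki-67 antigen, stood at -0.15 in Ink4a/Arf-/- cells and -0.96 in Ink4a/Arf+/+ cells. The mean log2 level of the 4 was 11.40 and 11.50 on the Ink4a/Arf-/- fx/fx arrays and 11.25 and 11.23 on the Ezh2 -/- arrays. In Ink4a/Arf+/+ cells it was 10.92 with fx/fx and 10.28 with Ezh2 -/-. Of the fibroblast markers 7 of 8 were lower in the Ink4a/Arf+/+ Ezh2 -/- array, as were 11246 of all 23346 probe sets. They ran from Pdgfra, a growth factor receptor, at -1.41 to Vim, near 0 at -0.012. The 1 that was higher was the related receptor Pdgfrb, at 0.44. The mean level of the 8 was 11.91 against 12.17. The widest marker difference, picked out after the values were seen, was that of Des, the muscle intermediate filament desmin, at -1.75 in Ink4a/Arf+/+ and 0.15 ± 0.084 in Ink4a/Arf-/- cells, and it was the 1 marker called between backgrounds (limma, adjusted p = 0.0235). In Ink4a/Arf-/- cells the fibroblast mean was 12.31 and 12.33 against 12.32 and 12.27. The limma test called none of these markers in Ink4a/Arf-/- cells. The part of growth rate or cell state in the p53 target differences was not tested.

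Feedback regulators split into a pair that was higher and a pair that was not. In Ink4a/Arf-/- cells Mdm2 stood at 11.74 and 11.66 with Ezh2 -/- and at 11.38 and 11.53 with fx/fx. Both Ezh2 -/- arrays were the higher ones, a difference of 0.25 ± 0.086 that was not called (limma, adjusted p = 0.684, unadjusted p = 0.0287). Here and throughout ± is limma's moderated SE, which pools a gene's own replicate spread with that of all probe sets. It can therefore be wider than the scatter of the gene's own arrays. Its levels with the locus intact were 10.44 against 10.01, a difference of 0.43. Ccng1, cyclin G1, which recruits a phosphatase that activates Mdm2, read 12.97 and 12.99 against 12.77 and 12.83, with no overlap and a difference of 0.18 ± 0.073 (limma, adjusted p = 0.725). With the locus intact it stood at 12.91 against 12.41, higher by 0.49.

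Ppm1d, the phosphatase Wip1 that switches off the damage kinases and p53, did not separate the genotypes. Its brighter probe set differed by -0.032 ± 0.084 in Ink4a/Arf-/- cells and by 0.040 in Ink4a/Arf+/+ cells, and the second probe set had the opposite signs, 0.071 and -0.15. Rps27l, a ribosomal protein paralogue that modulates p53 stability, read 12.47 and 12.48 against 12.50 and 12.45, so that the Ezh2 -/- arrays fell between the fx/fx arrays, and it differed by 0.12 with the locus intact. The group's median was 0.087 without Ink4a/Arf and 0.27 with it.

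Apoptosis genes, the largest group, were higher for 12 of 13 members in Ink4a/Arf-/- cells and for 11 of 13 in Ink4a/Arf+/+ cells, with medians of 0.17 and 0.36, and quantile normalization left both counts as they were. In Ink4a/Arf-/- cells Trp53inp1, Eda2r, Perp and Fas had the widest differences, and Bax, Aen and Apaf1 the narrowest. Trp53inp1, a nuclear stress protein that promotes apoptosis and autophagy, stood at 10.46 and 10.36 with Ezh2 -/- and at 9.61 and 9.80 with fx/fx in Ink4a/Arf-/- cells. Those arrays were 0.56 apart at their closest, and the difference was 0.71 ± 0.095 (limma, adjusted p = 0.472, unadjusted p = 0.000361). With Ink4a/Arf it stood at 10.82 against 9.93, a difference of 0.90.

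Eda2r, a receptor of the tumour necrosis factor family that binds ectodysplasin A2, read 9.09 and 9.13 against 8.49 and 8.38. Its groups were 0.59 apart at their closest, with a difference of 0.67 ± 0.079 (limma, adjusted p = 0.372, unadjusted p = 0.000178). With the locus it read 8.60 against 7.44, 2.22-fold higher and the widest difference of any member there. Fas, the death receptor, read 7.06 and 7.13 against 6.88 and 6.73 without the locus, a difference of 0.29 ± 0.085 (limma, adjusted p = 0.647). With the locus it read 8.24 against 7.26, 1.97-fold higher. Tnfrsf10b, the other death receptor of the list and a receptor for TRAIL, overlapped between genotypes in Ink4a/Arf-/- cells (0.083 ± 0.088) and was higher by 0.20 in Ink4a/Arf+/+ cells.

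Perp, a membrane protein of desmosomes needed for p53-driven death, read 7.69 and 7.61 against 7.25 and 7.32 without Ink4a/Arf. This was a clean separation of 0.36 ± 0.077 (limma, adjusted p = 0.57). With the locus it read 8.51 against 8.26, a difference of 0.25. The value between backgrounds, -0.11 ± 0.13, was smaller than its moderated SE, so no order of backgrounds is shown. Phlda3, which blocks Akt at the membrane, read 11.88 and 11.93 against 11.71 and 11.60. Its arrays did not overlap either, and its differences were 0.25 ± 0.079 and 0.37. Zmat3, an RNA-binding zinc finger protein, also separated the genotypes, by 0.17 ± 0.075, and was 0.39 higher in Ink4a/Arf+/+ cells.

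The BCL2 family members and the apoptosome differed little without Ink4a/Arf, by at most 0.18. Bax, the pore-forming effector of mitochondria, read 10.13 and 10.14 against 10.09 and 10.05 in Ink4a/Arf-/- cells. The arrays separated by only 0.042, and the difference of 0.068 ± 0.072 was smaller than its moderated SE (limma, adjusted p = 0.902). The gaps between its own replicate arrays were narrower, 0.0072 with Ezh2 -/- and 0.046 with fx/fx. In Ink4a/Arf+/+ cells Bax read 9.43 against 9.03, a difference of 0.40. Bbc3 (Puma), a BH3-only activator of Bax, overlapped between genotypes, with 0.13 ± 0.11 and 0.19.

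Pmaip1 (Noxa), the other BH3-only gene, read 9.59 and 9.53 against 9.41 and 9.34 without Ink4a/Arf, higher in both Ezh2 -/- arrays by 0.18 ± 0.075 (limma, adjusted p = 0.725). With the locus it read 7.58 against 7.70, a difference of -0.13 in the opposite direction. Apaf1, the scaffold of the apoptosome, differed by -0.066 ± 0.085 and -0.047. Aen, an exonuclease that cuts DNA in dying cells, overlapped in Ink4a/Arf-/- cells (0.039 ± 0.11) and was higher by 0.36 in Ink4a/Arf+/+ cells. Ei24, a membrane protein of the endoplasmic reticulum, was higher by 0.098 ± 0.083 and 0.16.

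**Figure D2:**
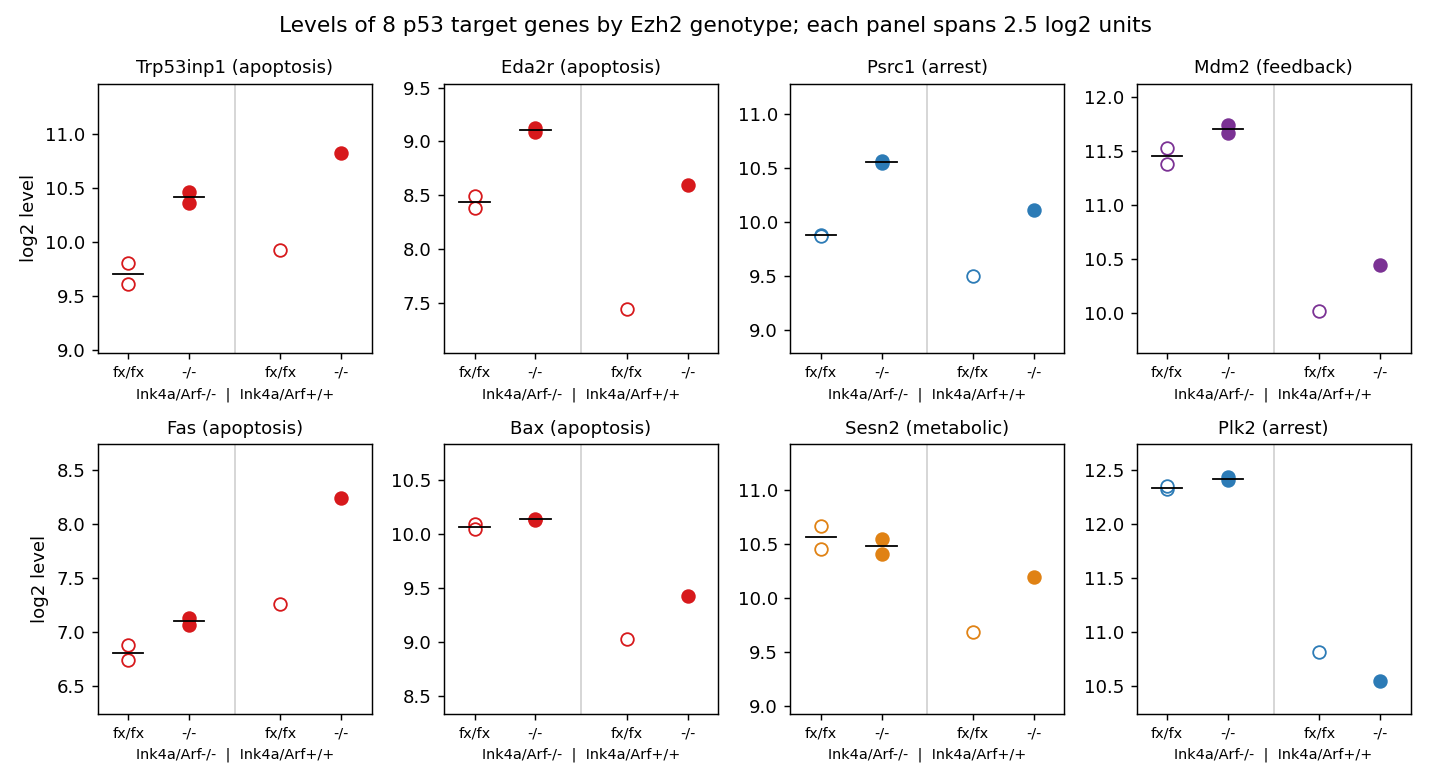
Log2 levels of 8 members, picked after their values were seen, with open circles for Ezh2 fx/fx and filled circles for Ezh2 -/- arrays, a short line for the mean of 2 arrays, and the Ink4a/Arf-/- table left and the Ink4a/Arf+/+ table right of the grey line in each panel of 2.5 log2 units. Levels can be read against each other within a table only. Trp53inp1, Eda2r and Psrc1 step up in both tables, while Bax and Sesn2 do so in the Ink4a/Arf+/+ table with almost level values in the other.

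Arrest genes divided into a pair with wide differences, Psrc1 and Btg2, and a pair near 0 without Ink4a/Arf. Psrc1, a microtubule-binding protein of the mitotic spindle, stood at 10.56 and 10.55 with Ezh2 -/- and at 9.88 and 9.87 with fx/fx in Ink4a/Arf-/- cells, the tightest replicate pairs of the 4 arrest genes in both genotypes. The groups were 0.66 apart, and the difference of 0.68 ± 0.071 had the smallest p of any member (limma, adjusted p = 0.305, unadjusted p = 9.41e-05). With the locus it read 10.11 against 9.51, a difference of 0.60. Btg2, an antiproliferative partner of the mRNA deadenylation machinery, read 10.26 and 10.42 against 9.77 and 9.78. Its fx/fx arrays were nearly equal and both Ezh2 -/- arrays lay above them, by 0.57 ± 0.086 (limma, adjusted p = 0.52), and with the locus it was 0.78 higher.

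Plk2, a polo-like kinase, read 12.41 and 12.44 against 12.32 and 12.36 without Ink4a/Arf, a small separation of 0.083 ± 0.071. With the locus it read 10.55 against 10.82, -0.27, the most negative difference of any member. Gadd45a, a damage-induced binding partner of PCNA, differed by -0.020 ± 0.10 and -0.032, and its replicate arrays were further apart than its genotypes. The group medians were 0.32 without and 0.29 with Ink4a/Arf, the 1 group whose median was not larger with the locus.

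Repair genes differed mainly in 1 member. Polk, a translesion DNA polymerase, read 9.94 and 9.98 against 9.66 and 9.78, with no overlap and a difference of 0.24 ± 0.080 (limma, adjusted p = 0.669), and 9.33 against 8.69 in Ink4a/Arf+/+ cells, 1.56-fold higher. The 3 nucleotide excision repair genes were the damage sensors Xpc at -0.0062 ± 0.081 and Ddb2 at 0.10 ± 0.093 and the nuclease Ercc5 at 0.051 ± 0.072. All 3 lay between 0.14 and 0.22 in Ink4a/Arf+/+ cells. The group median of 0.077 in Ink4a/Arf-/- cells ran from 0.018 without fx/fx replicate 2 to 0.13 without fx/fx replicate 1, and it was 0.21 with the locus.

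Metabolic targets fell into 2 kinds in Ink4a/Arf-/- cells and were all higher in Ink4a/Arf+/+ cells. Ddit4l (Redd2), an inhibitor of the growth kinase mTORC1, read 8.48 and 8.29 against 7.96 and 7.68. Its replicates were wide apart but the genotypes did not overlap, with a difference of 0.57 ± 0.12 (limma, adjusted p = 0.572) and of 0.64 with the locus. Ephx1, the microsomal epoxide hydrolase that detoxifies reactive epoxides, read 11.07 and 11.11 against 10.68 and 10.54, separated by 0.47 ± 0.082 (limma, adjusted p = 0.52). In Ink4a/Arf+/+ cells it read 12.00 against 11.23, 1.70-fold higher.

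The sestrins, stress proteins that restrain mTORC1, did not follow without Ink4a/Arf. Sesn2 stood at 10.55 and 10.41 with Ezh2 -/- and at 10.67 and 10.46 with fx/fx in Ink4a/Arf-/- cells, overlapping, with a difference of -0.081 ± 0.10 that turned to 0.023 without fx/fx replicate 1. With the locus it read 10.19 against 9.69, higher by 0.51. Sesn1 read 9.16 and 9.17 against 9.20 and 9.22, both Ezh2 -/- arrays just below, and 9.34 against 9.19 with the locus. Dcxr, a reductase of sugars and dicarbonyls, overlapped in Ink4a/Arf-/- cells (0.079 ± 0.088) and was 0.43 higher in Ink4a/Arf+/+ cells. The median of the 5 was 0.079 without the locus, which moved to 0.14 without Ezh2 -/- replicate 1, 0.014 without Ezh2 -/- replicate 2, 0.14 when fx/fx replicate 1 was left out and 0.017 when fx/fx replicate 2 was, and it was 0.51 with the locus.

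**Figure D3:**
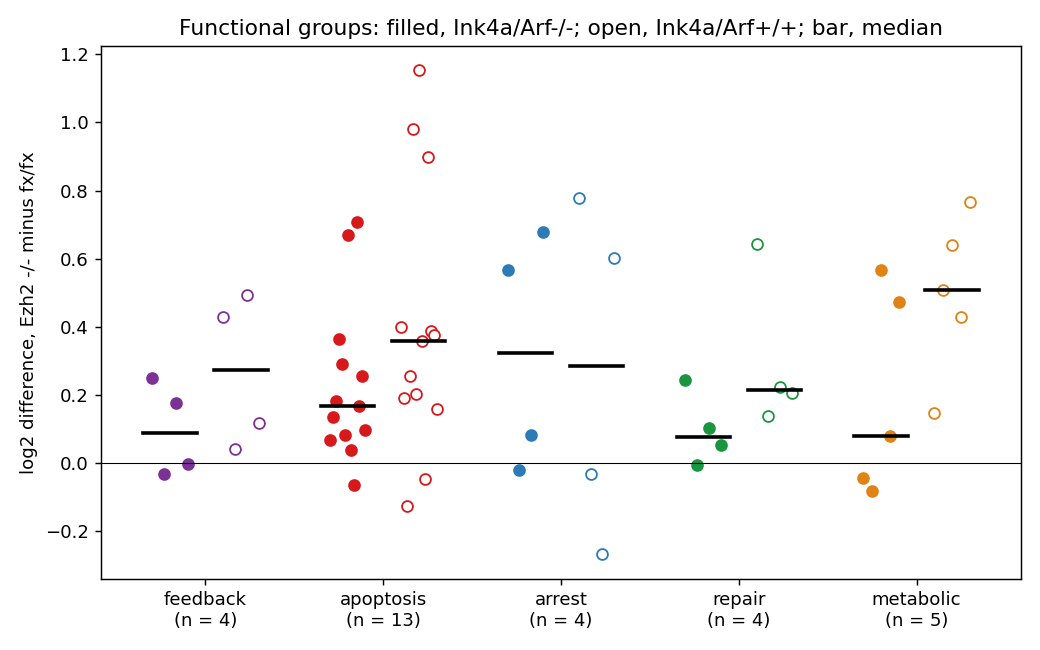
Log2 differences, Ezh2 -/- minus fx/fx, of the members of each functional group, filled for Ink4a/Arf-/- and open for Ink4a/Arf+/+ cells, with a bar at the median. The metabolic median is 0.079 filled and 0.51 open, and the arrest medians of 0.32 and 0.29 lie side by side.

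The difference between backgrounds was tested member by member as the Ink4a/Arf+/+ difference minus the Ink4a/Arf-/- difference. This assumes that the single arrays vary like the replicates and that a log2 difference has the same scale in both tables. It was positive for 25 of the 30 members, and for 13215 of all 23346 probe sets. The median was 0.15 over the members, beside 0.032 over all probe sets. The limma test called 0 members, against 0.407% of all probe sets. At an unadjusted p below 0.05 there were 6 members with a larger difference in Ink4a/Arf+/+ cells, against 6.5% of all probe sets, and 1, Plk2, with a smaller one, against 4.66%. The count of 6 was 2 without Ezh2 -/- replicate 1 and 2 without Ezh2 -/- replicate 2.

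Fas came first among the 6, with a difference of differences of 0.69 ± 0.15 (SE; limma, adjusted p = 0.168, unadjusted p = 0.0037). On the Ink4a/Arf-/- arrays Fas read 6.73 to 7.13, close to the leukocyte marker Ptprc at 6.94 to 7.12. Whether a level near background narrowed its difference there was not tested. Sesn2 followed in size at 0.59 ± 0.18 (adjusted p = 0.308) and Eda2r at 0.48 ± 0.14 (adjusted p = 0.282). The other 3 were Polk at 0.40, Bax at 0.33 and Ccng1 at 0.32, with adjusted p between 0.375 and 0.44. Plk2 stood at -0.35 ± 0.12 (adjusted p = 0.385). For Psrc1 (-0.075 ± 0.12), Ddit4l (0.075 ± 0.21) and Trp53inp1 (0.19 ± 0.16) the unadjusted p was 0.292 or more, which does not show that the backgrounds act alike.

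The members kept much of their order between backgrounds. Over the 30 genes the 2 differences had a Pearson r of 0.74 and a Spearman rho of 0.69, a description across genes that are not independent and that were measured on separate arrays. The same values over all probe sets are not given here, so this order is not shown to be particular to the members. Higher in both were 21 members, lower in both 2 (Apaf1 and Gadd45a), above 0 without the locus and below 0 with it Pmaip1 and Plk2, and the reverse Sesn1, Sesn2, Ppm1d, Rps27l and Xpc. Of the 18 members that did not overlap in Ink4a/Arf-/- cells 16 were also higher in Ink4a/Arf+/+ cells, where 68.1% of the 3035 probe sets that did not overlap in that direction were. There were 3 members that exceeded 0.28 with the locus while overlapping without it: Aen, Dcxr and Sesn2. The share of all probe sets that met both conditions is not given here, and 10.6% exceeded 0.28 with the locus whether or not they overlapped without it.

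**Figure D4:**
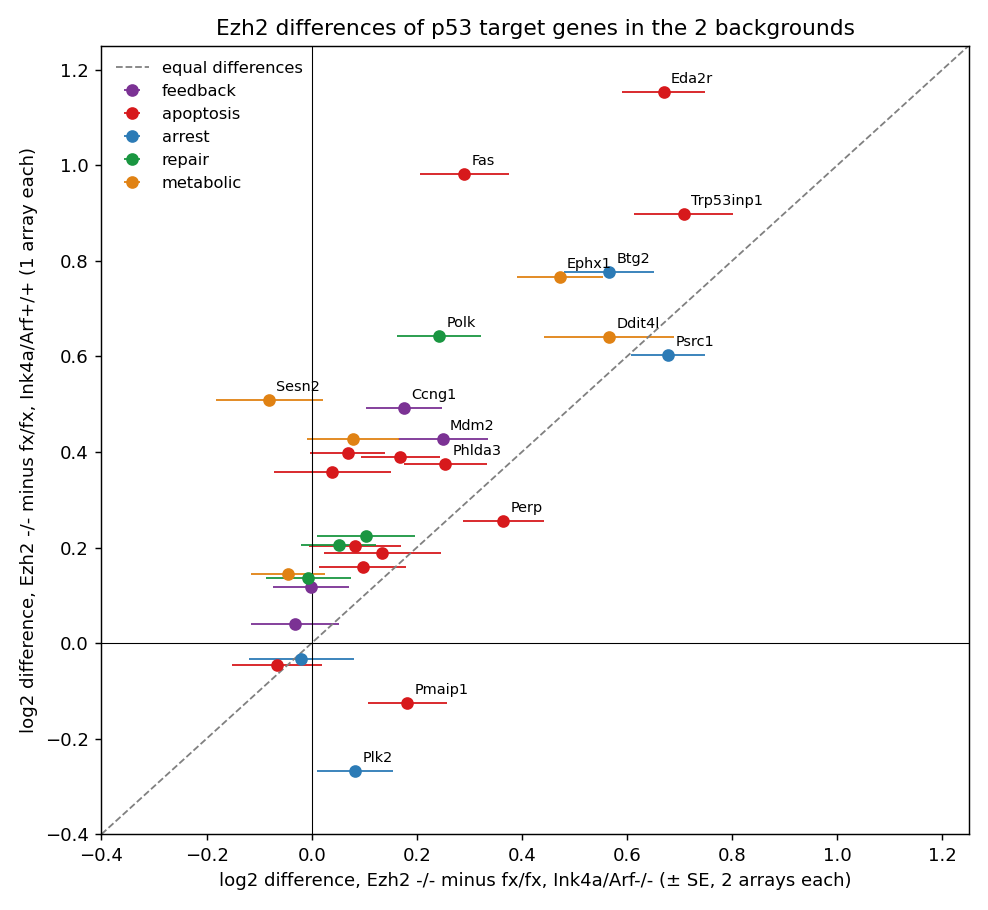
Each point is a member, coloured by function, with its log2 difference in Ink4a/Arf-/- cells on the horizontal axis and in Ink4a/Arf+/+ cells on the vertical axis. Horizontal bars are ± limma's moderated SE, with 2 arrays per genotype, and the vertical axis has 1 array per genotype. The dashed line marks equal differences. Of the 30 points 25 lie above the line, Fas and Sesn2 farthest from it. On the vertical axis 4 points lie below 0, Pmaip1 and Plk2 and, closer to 0, Apaf1 and Gadd45a.

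Ranks within an array allow the levels to be set side by side across the tables, as a description with no test. Plk2 ranked at the 96.5th to 96.9th percentile on the Ink4a/Arf-/- arrays and at the 87.2nd and 89.5th on the Ink4a/Arf+/+ Ezh2 -/- and fx/fx arrays. Pmaip1 lay at the 64.6th to 68.0th and at the 50.8th and 52.4th. Fas went the other way, at the 25.1st to 31.8th percentile without the locus and at the 58.8th and 47.3rd with it, and so did Perp, at the 32.2nd to 41.7th and the 62.1st and 58.9th. Mdm2 ranked at the 90.2nd to 93.3rd percentile without the locus and at the 86.1st and 81.5th with it.

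Genes around p53 outside the list gave the setting. Trp53, the gene of p53, differed by -0.068 ± 0.074 without and -0.11 with Ink4a/Arf, and Mdm4, an inhibitor of p53, by -0.0082 ± 0.080 and -0.21. Of the 15 core and upstream genes 13 were lower in Ink4a/Arf-/- cells, as were 14218 of all 23346 probe sets. In Ink4a/Arf+/+ cells 11 were, as were 11246 of all probe sets. The medians of the 15 were -0.074 and -0.11, and the 13 included genes near 0 such as Mdm4. Further from 0 were the damage kinases Chek1 at -0.21 and -0.80, Atm at -0.17 and -0.64 and Chek2 at -0.18 and -0.44. Of 17 further p53 targets measured 10 were higher without Ink4a/Arf, against 39.1% of all probe sets, and 13 with it, against 50.1%. Their medians were 0.093 and 0.074. Cdkn1a (p21), a cyclin-dependent kinase inhibitor and classic p53 target, read 12.92 and 12.88 against 12.43 and 12.47, higher by 0.45 ± 0.072 (limma, adjusted p = 0.52), and by 0.75 with the locus. Sfn (14-3-3 sigma), which holds cells in G2, was higher by 0.33 and 1.04, the adenylate kinase Ak1 by 0.24 and 0.78 and the cytokine Lif by 0.32 and 0.58. Dram1, an autophagy regulator, differed by -0.029 and -0.56. The limma test called 0 of these 32 genes in Ink4a/Arf-/- cells, and 7 of them had an unadjusted p below 0.05, 6 higher and 1, Chek1, lower, against the 2.8% and 4.12% of all probe sets given above.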

How the data were processed

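The authors deposited log2 levels of 23346 probe sets for 6 Affymetrix whole-transcript arrays in 2 tables, 1 per Ink4a/Arf background, per the file headers. Each deposited table also holds a log2 fold change and an unadjusted p-value, and the fold change equals the difference of the array means. The submitters' processing notes list limma, with no version. No source used here states the normalization. Tables were joined by probe set and groups taken from the titles. For 26 probe sets the symbols differed between the tables, and those of the Ink4a/Arf-/- table were used.

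All 6 arrays entered 1 limma model (version 3.58.1 in R 4.3.3) with 1 mean per group and 2 residual degrees of freedom, all from Ink4a/Arf-/- arrays. The SE of each difference was moderated by limma toward the spread of all probe sets. Tests were two-sided, adjusted with Benjamini-Hochberg over all probe sets and called below 0.05. With 1 array per genotype, Ink4a/Arf+/+ differences were counted past 1.5-fold and 2-fold. The brightest probe set stood for a gene. All members are named, with Ezh2, Cdkn2a, Trp53, Mdm4, Cdkn1a and the 3 most positive and 3 most negative other pathway genes per background. Pidd1, Tigar and Sco2 were not found by symbol. Markers named in the text illustrate their lists. The fits were also run on simulated data whose spread was drawn from limma's own fitted prior. No outcome of that run is given here, so it says nothing on whether differences of this size could be called. Members and lists were chosen with earlier results of these data known. Promoter sequences are RefSeq's (GRCm38.p6), and the arrays' own build was not used. The number of arrays limits the precision.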

Additional observations from a re-analysis of the deposited data

Results flagged for a closer look

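Pmaip1, Plk2 and Sesn1 had small differences of opposite sign in the 2 backgrounds. Without Ink4a/Arf these were 0.18 ± 0.075, 0.083 ± 0.071 and -0.045 ± 0.071. The last was smaller than its moderated SE, although Sesn1's own replicate gaps were only 0.010 with Ezh2 -/- and 0.018 with fx/fx. With the locus they were -0.13, -0.27 and 0.15, all inside the widest replicate gap of a member, 0.28. Pmaip1 and Plk2 were higher in both Ezh2 -/- arrays of Ink4a/Arf-/- cells and lower in that of Ink4a/Arf+/+ cells, and Sesn1 was the reverse. The difference of the differences, Ink4a/Arf+/+ minus Ink4a/Arf-/-, was -0.31 for Pmaip1 (limma, adjusted p = 0.47, unadjusted p = 0.0583), -0.35 for Plk2 (adjusted p = 0.385, unadjusted p = 0.0311) and 0.19 for Sesn1 (adjusted p = 0.652, unadjusted p = 0.172). None of the 3 was called. The Ink4a/Arf+/+ side of each rests on 1 array per genotype.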

How the results depend on the processing

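The alternatives were a variance trend, leaving out the 30% dimmest probe sets, quantile normalization within each table, the series matrix values (identical to the tables), the mean over a gene's probe sets, the authors' deposited p-values, a replicate block and leaving out each Ink4a/Arf-/- array. Counting members without overlap after leaving out an array was added after seeing the data. In Ink4a/Arf-/- cells the members called were 0 in all of these except the variance trend, with 5. Leaving out 1 array gave medians of 0.11 to 0.16 for all members, 0.15 to 0.21 for apoptosis, 0.28 to 0.37 for arrest, 0.018 to 0.13 for repair and 0.014 to 0.14 for metabolism. It gave 7 to 12 members higher at an unadjusted p below 0.05, and 2 to 8 with a larger difference in Ink4a/Arf+/+ cells.

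Some members near 0 turned sign. With quantile normalization the Ink4a/Arf-/- difference was 0.0016 for Rps27l, 0.0031 for Gadd45a and 0.013 for Xpc, and with the mean over its probe sets Ppm1d stood at 0.019 there and at -0.073 between backgrounds. With 1 array left out the Ink4a/Arf-/- differences ran from -0.073 to 0.15 for Aen, -0.15 to 0.014 for Apaf1, -0.11 to 0.071 for Gadd45a, -0.098 to 0.034 for Ppm1d, -0.028 to 0.024 for Rps27l, -0.18 to 0.023 for Sesn2 and -0.055 to 0.043 for Xpc. Between backgrounds they ran from -0.060 to 0.099 for Apaf1, -0.076 to 0.19 for Bbc3, -0.065 to 0.22 for Ddit4l, -0.011 to 0.13 for Ei24 and -0.10 to 0.078 for Gadd45a. The cause was not tested. With the replicate number as a block, 11 members were higher at an unadjusted p below 0.05 and 0 were called. With 2 pairs, replicate deviations correlated at 0.026, so the numbers were taken as names only.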
